A study of Mus musculus with 4 samples.

Results

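The RBFOX, NOVA, MBNL and ELAVL proteins are RNA-binding proteins that set the neuronal pattern of splicing, and their own transcripts carry alternative exons. The genes examined here were Rbfox1, Rbfox2, Rbfox3, Nova1, Nova2, Mbnl1, Mbnl2, Elavl2, Elavl3 and Elavl4, chosen by name. They were 10 of 18938 genes that could be named in the deposited tables. Each table lists exon trios, meaning a middle exon with the exon on each side, and 149 of 228333 trios belonged to the 10 genes. A trio was assigned to a gene when its chromosome, strand, middle exon length and both intron lengths matched a mouse transcript of the GENCODE annotation.

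PTBP2, the neuronal relative of the polypyrimidine tract-binding protein PTBP1, mostly represses exons that mature neurons include. RNA was sequenced from mice of a mixed background, which the labels spell C56Bl/6:129S2 (the C57Bl/6 strain in the study's text), in 4 groups of 1 library each. At embryonic day 18 (E18), whole brain came from NesKO embryos, which lack exon 4 of Ptbp2 in cells that arise from progenitors with Nestin-Cre, and from WT littermates, with 2 brains for each genotype. At postnatal day 1 (P1), cortex came from EmxKO mice, in which Emx-Cre acts in forebrain projection neurons and leaves other cells of the cortex with Ptbp2, and from WT littermates. The labels give the P1 libraries as strand specific and the E18 libraries as not, so that stage, tissue, Cre line and library protocol cannot be told apart. With 1 library per group no difference has a replicate check, and every test given here compares the reads of 2 libraries and not of 2 genotypes.

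The targeted exon was read first. Exon 4 of Ptbp2 (173 nt, coding, chr3:119455862-119456034 in mm9, minus strand) had 0 inclusion reads and 257 skipping reads in NesKO, which allows an inclusion of up to 1.17%. In the E18 library labelled WT, 1 read skipped the exon against 644 and 242 on its 2 inclusion junctions. As a share of skipping reads plus the mean of both inclusion junctions, skipping was 82.6% in EmxKO, with 680 skipping reads and 152 and 134 inclusion reads. The P1 library labelled WT also skipped exon 4, with 604 skipping reads, 1250 and 1371 inclusion reads and a share of 31.6%, against 0.225% in the E18 WT. The label of this library was therefore not borne out by its own target exon, and it is called labelled WT throughout. Differences at P1 are thus between a library with 82.6% and a library with 31.6% skipping of exon 4.

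Distinct junctions carried between 48367448 and 83394001 reads per library. The summed junction reads of 7 neuronal markers were 0.884 times as high in NesKO as in its WT and 0.981 times in EmxKO. The P1 sum held genes with values on either side, with Map2 at 367 and 635 RPM (reads per 1000000 junction reads) and Snap25 at 64.3 and 127 in EmxKO and labelled WT, but Tubb3 at 1526 and 1213 and Syn1 at 232 and 151. Knockout over labelled WT was 1.06 and 0.717 at E18 and P1 for 6 progenitor markers, 0.791 and 1.09 for 5 astrocyte markers, 0.796 and 1.23 for 5 oligodendrocyte markers, 0.859 and 1.16 for 3 endothelial markers and 1.30 and 0.956 for Hbb-bs, a globin of blood. The 5 cortical projection neuron markers summed to 160 and 181 RPM in the E18 libraries and to 434 and 514 in the P1 libraries. Of 7 markers of brain outside cortex, 4 were measured, and they summed to 143 and 181 RPM at E18 and to 5.51 and 6.12 at P1, with Hoxb3 at 0 in both P1 libraries. The summed 5 microglial markers were 1.50 times as high in NesKO and 1.55 times in EmxKO, although P2ry12 was lower in both knockouts. All these ratios are of sums, and single genes could go the other way. At E18, Gfap was at 65.9 RPM in NesKO and 23.7 in WT. S100b was also higher, while Aqp4, Slc1a3 and Aldh1l1 were lower. At P1, the progenitor markers Nes, Sox9 and Hes5 were higher in EmxKO, while Fabp7 (150 against 279 RPM), Vim and Pax6 were lower. The part of these markers in the results was not tested.

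The sequences of the exons on which the results turn are given first, from GENCODE transcripts on GRCm38, to show how alike the family members are. In the first pair, the Rbfox1 exon is shown as the coding exon that passed the test on reads between NesKO and WT, and the Nova1 exon for its difference between the stages. They are exon 10 of Rbfox1 (chr16:7330362-7330442, plus strand) and exon 4 of Nova1 (chr12:46713498-46713569, minus strand). Capitals mark TCTT, a short motif that PTB proteins are known to bind. It was searched on the transcript strand only, since it is read in RNA.
Rbfox1 81 nt: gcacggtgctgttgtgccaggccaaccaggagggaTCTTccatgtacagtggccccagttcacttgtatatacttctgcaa
Nova1 72 nt: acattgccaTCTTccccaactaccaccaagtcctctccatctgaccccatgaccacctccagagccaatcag
Each holds TCTT once. The motif is in 29.7% of the 1344 internal coding exons of 81 nt in the annotation and in 24.1% of the 1216 of 72 nt, so a match in such an exon is common.

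The MBNL and ELAVL exons that follow are shown because each has a counterpart of the same length in a paralogue and at least 1 of the pair had a difference past a threshold. The capitals mark the bases that differ between the paralogues. The 54 nt exon is exon 5 of Mbnl1 (chr3:60614683-60614736, plus strand) and exon 6 of Mbnl2 (chr14:120395712-120395765, plus strand).
Mbnl1 54 nt: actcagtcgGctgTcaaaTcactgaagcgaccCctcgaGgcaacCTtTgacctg
Mbnl2 54 nt: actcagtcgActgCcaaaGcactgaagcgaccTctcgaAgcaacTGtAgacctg
The 36 nt exon (Mbnl1, chr3:60621423-60621458, plus strand; Mbnl2, chr14:120403336-120403371, plus strand) and the 95 nt exon (Mbnl1, chr3:60622146-60622240, plus strand; Mbnl2, chr14:120404638-120404732, plus strand) lie downstream of it.
Mbnl1 36 nt: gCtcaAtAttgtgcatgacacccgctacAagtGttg
Mbnl2 36 nt: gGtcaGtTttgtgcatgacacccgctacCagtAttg
Mbnl1 95 nt: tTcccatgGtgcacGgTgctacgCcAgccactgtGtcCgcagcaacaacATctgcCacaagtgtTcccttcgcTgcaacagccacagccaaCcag
Mbnl2 95 nt: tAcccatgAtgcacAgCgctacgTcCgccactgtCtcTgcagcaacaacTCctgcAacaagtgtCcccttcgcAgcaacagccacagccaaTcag
The 39 nt exon of Elavl2 (chr4:91254141-91254179, minus strand) and Elavl4 (chr4:110209740-110209778, minus strand) lies in the hinge that joins the second and the third RNA recognition motif.
Elavl2 39 nt: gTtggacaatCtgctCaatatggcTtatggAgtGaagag
Elavl4 39 nt: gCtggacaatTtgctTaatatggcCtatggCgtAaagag
Identity was 85.2% for the 54 nt pair, 86.1% for the 36 nt pair, 85.3% for the 95 nt pair and 84.6% for the 39 nt pair. All are coding, and the lengths of 54, 36 and 39 nt are multiples of 3, while the length of 95 nt leaves a remainder of 2 and so shifts the reading frame.

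The 93 nt exon of the RBFOX genes encodes part of the RNA recognition motif. It is shown because all 3 genes have it and it was included almost fully in every library. It is exon 7 of Rbfox1 (chr16:7292185-7292277, plus strand), exon 6 of Rbfox2 (chr15:77105577-77105669, minus strand) and exon 8 of Rbfox3 (chr11:118502842-118502934, minus strand), and the capitals again mark the bases that differ.
Rbfox1 93 nt: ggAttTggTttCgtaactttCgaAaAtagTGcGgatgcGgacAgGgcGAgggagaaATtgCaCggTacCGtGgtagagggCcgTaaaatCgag
Rbfox2 93 nt: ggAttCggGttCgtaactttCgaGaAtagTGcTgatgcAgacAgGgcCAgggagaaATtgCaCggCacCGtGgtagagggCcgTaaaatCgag
Rbfox3 93 nt: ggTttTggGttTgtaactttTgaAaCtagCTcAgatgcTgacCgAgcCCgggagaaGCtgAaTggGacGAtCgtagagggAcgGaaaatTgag
Rbfox1 and Rbfox2 shared 86 of its 93 bases, and Rbfox3 shared 69 with either.

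The percent spliced in (PSI) is the deposited inclusion ratio in percent, an estimate of how much of the mRNA holds that exon. Where several trios covered an exon, the one with the most junction reads stood for it, separately for trios that the database lists as cassette or as constitutive. This gave 92 events on the 10 genes, each of which had 2 or more. At least 20 junction reads were required in both libraries compared, which 83 events met at E18, 83 at P1 and 86 between the libraries labelled WT. The filter removed most in Mbnl1, where 6 of 14 events fell below it at E18. The thinnest events at E18 had 20 reads, the Mbnl1 54 nt, the Mbnl1 223 nt and the Mbnl2 36 nt exon in NesKO, and the Rbfox1 43 nt exon lay just outside with 19 and 15 reads. The median member event had between 480 and 914 junction reads per library, of which 3 reads are 0.625% to 0.328%. The smallest share that can be seen in the PSI from junction reads, described below, is higher. Its total takes the mean of the 2 inclusion junctions and so holds fewer reads. For the Nova1 144 nt exon in NesKO, with 858 junction reads, it was 0.699%. Coordinates beside the values are on mm9, the build of the deposited tables. A second PSI was computed from junction reads alone, as mean inclusion reads divided by mean inclusion plus skipping reads. It carries 95% intervals, which cover counting error only because PCR copies are not independent molecules.

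The first question was whether loss of PTBP2 moved the splicing of these regulators. At E18, 8 of 83 member events differed by at least 10 PSI points between NesKO and WT, 4 higher and 4 lower, where 2.23% of all events tested did. Among the cassette events it was 5 of 17, with 11.0% in the background. All 8 lay in Mbnl1, Mbnl2 and Elavl2, and none in Rbfox1, Rbfox2, Rbfox3, Nova1, Nova2, Elavl3 or Elavl4. They rested on 20 to 135 junction reads per library. None of the 8 passed the two-sided Fisher's exact test of inclusion against skipping reads after Benjamini-Hochberg adjustment, and none was under 0.05 unadjusted. Of the 83 events, 72 differed by less than 5 points.

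By the reads themselves, 2 member events separated the E18 libraries at an adjusted p under 0.05 (Fisher's exact test), in Rbfox1 and in Rbfox3, where 0.261% of all events did. Both had a higher inclusion in NesKO, and both lay just under 10 PSI points. The share of all events, here and in the later tests on reads, includes some alternative splice sites whose spliced reads were not counted. Their number was not determined, and they are described with the processing. At P1, 1 of 83 member events was past 10 points, where 1.47% of all events were, and among cassette events it was 1 of 16 with 9.49% in the background. The test on reads called 1 member event at P1, the same Rbfox3 exon, with 0.497% of all events called. Unadjusted, 4 member events were under 0.05 at E18 and 7 at P1. The 7 include the 40 nt exon of Rbfox2 both as a cassette and as a constitutive event, on the same reads. No share over all events is given for unadjusted p, so these counts have no background to be read against.

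**Figure D1:**
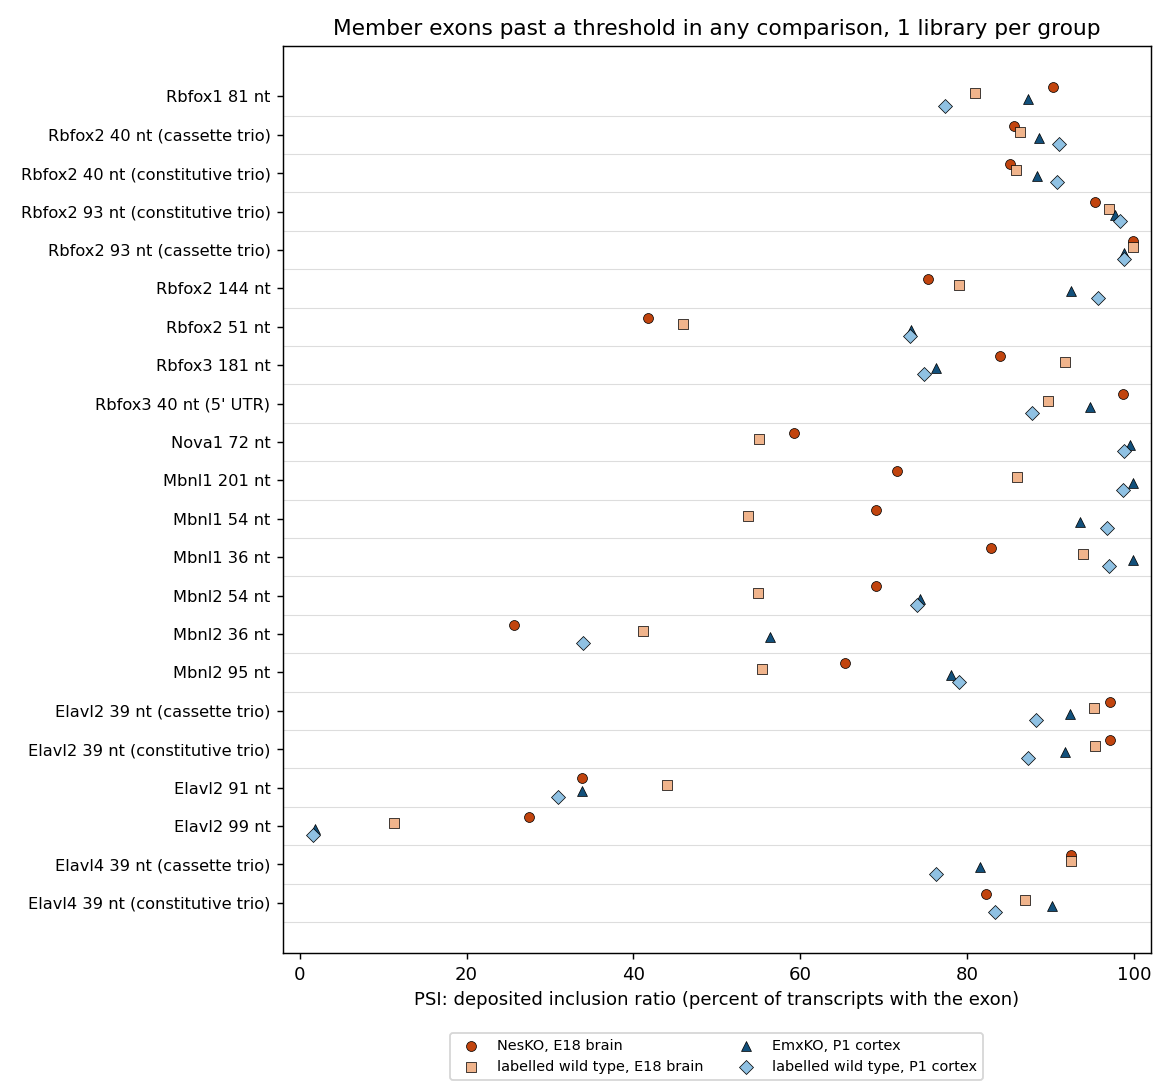
PSI from the deposited ratio (x axis, percent) of the 22 member events past 10 points or past an adjusted p of 0.05 in any comparison, with 1 point per library. In the Rbfox1 81 nt and the Rbfox3 40 nt (5' UTR) rows both knockout points lie to the right of both labelled-WT points, and in the Nova1 72 nt row the P1 points are at 98.8 and 99.5 and the E18 points at 55.1 and 59.3.

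Rbfox3 encodes NeuN, the nuclear protein by which mature neurons are commonly stained. The exon in question is its exon 4, 40 nt of 5' UTR (chr11:118471473-118471512 in mm9, minus strand). Its PSI was 98.7 in NesKO, 89.7 in the E18 WT, 94.7 in EmxKO and 87.8 in the labelled-WT P1 cortex. Skipping reads numbered 5, 34, 45 and 76 in the same order. Both knockout libraries were thus above both libraries labelled WT. The difference in junction PSI was 12.3 points at E18 (95% interval, 7.41 to 17.5; Fisher's exact test, adjusted p = 0.00072). At P1 it was 8.34 points (4.47 to 12.4; Fisher's exact test, adjusted p = 0.0074). The 2 knockout comparisons share no library. The difference between their effects was under 0.05 in the unadjusted Wald test and did not pass adjustment over all events.

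Rbfox1 acts on neuronal exons through the motif GCATG. Its coding exon of 81 nt, shown above, is exon 10 of 15 (chr16:7330455-7330535 in mm9, plus strand) and lies between the 54 nt and the 133 nt exon, at the place where Rbfox2 has a second exon of 93 nt. Its PSI was 90.3 in NesKO against 81.0 in WT at E18 and 87.3 in EmxKO against 77.4 in labelled WT at P1. The order of the libraries was the same as in the Rbfox3 exon, with both knockouts above both WT. In junction reads the difference was 9.87 points at E18 (5.22 to 14.5; Fisher's exact test, adjusted p = 0.016) and 8.79 at P1 (4.12 to 13.1; Fisher's exact test, adjusted p = 0.059). With 9.3 and 9.9 points in the deposited ratio, the exon lay just outside the limit at both stages. The exon of 93 nt at the same place in Rbfox2 was at 95.3, 97.0, 97.8 and 98.4 in NesKO, E18 WT, EmxKO and labelled WT, and its knockout values lay 1.7 and 0.6 points lower.

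**Figure D2:**
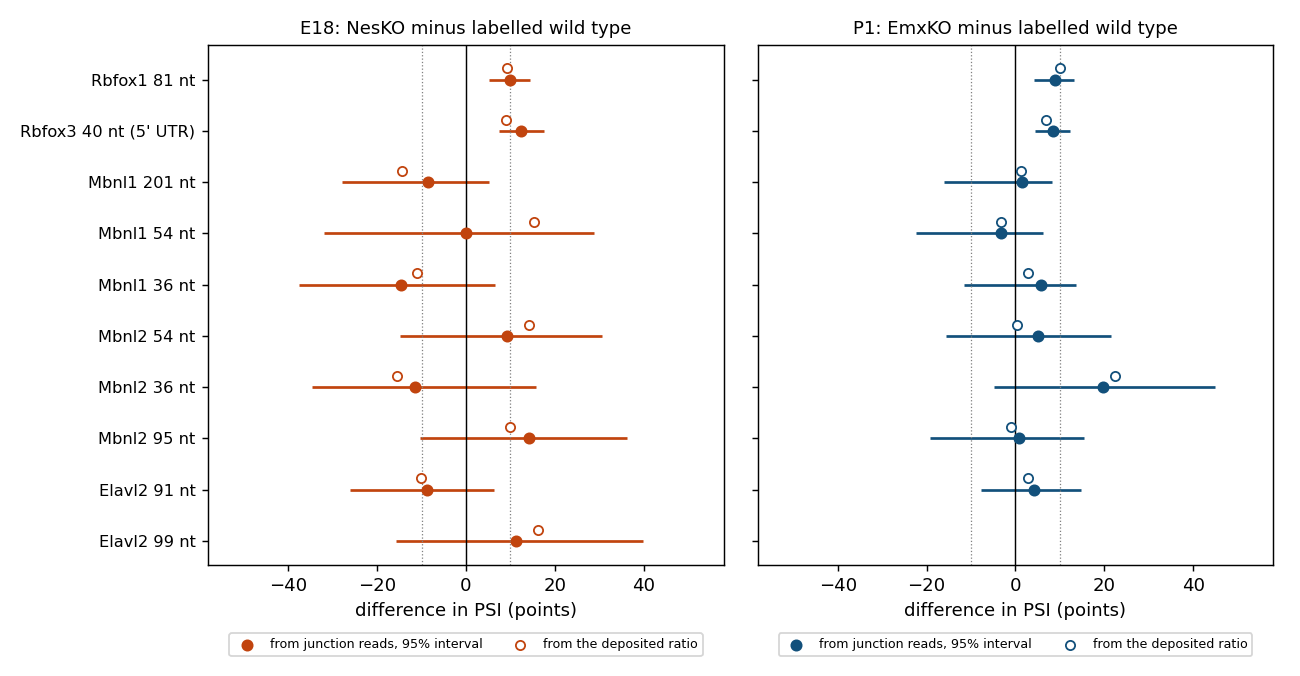
Difference in PSI (x axis, points) between knockout and labelled WT at E18 and P1 for the 10 member events past either threshold, with filled points and 95% intervals from junction reads and open points from the deposited ratio. The intervals of the Rbfox1 81 nt and the Rbfox3 40 nt exon exclude 0 at both stages, while those of the 8 MBNL and ELAVL2 events include it. The Elavl2 99 nt exon had too few reads at P1.

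Among the other RBFOX exons, those of the RNA recognition motif were close to full inclusion in all 4 libraries. The 93 nt exon had a PSI between 99.8 and 99.9 in Rbfox1, between 98.8 and 99.9 in Rbfox2 and between 99.6 and 99.9 in Rbfox3. The E18 difference in junction PSI was -0.04 points in Rbfox1 (-1.41 to 1.17), 0.12 in Rbfox2 (-0.17 to 0.44) and -0.75 in Rbfox3 (-2.71 to 0.75). Changes of 3 points or more in this exon are therefore outside the counting error of these libraries.

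The RBFOX genes also use one of 2 exons of 40 and 43 nt, of which the 40 nt exon is the one known from brain and the 43 nt exon the one known from muscle. In Rbfox1 the 40 nt exon was at 97.1, 98.5, 96.5 and 98.0 in NesKO, E18 WT, EmxKO and labelled WT. In Rbfox2 it was at 85.6, 86.3, 88.6 and 91.0, and the 43 nt exon was at 6.0, 5.7, 7.7 and 6.3. The coding 40 nt exon of Rbfox3 was between 99.7 and 99.9. The 43 nt exon of Rbfox1 was at 3.4, 1.5, 2.8 and 1.2, on 15 to 25 reads. The brain form thus prevailed in every library, and no knockout value differed from its WT by more than 2.4 points. For the 40 nt exon of Rbfox2, the largest of these, the junction difference at P1 was -2.85 (-5.31 to -0.36; Fisher's exact test, adjusted p = 1). The next ranking covers cassette exons named by exon length and both introns. The largest knockout difference was in Rbfox1 in the second exon of 54 nt, at 95.7 against 97.4 at E18 and 95.5 against 94.0 at P1. In Rbfox2 it was in that of 51 nt, at 41.8 against 45.9 and 73.3 against 73.2. The 53 nt cassette exon of Rbfox1, named only by the wider rule described below, differed more, at 78.7 against 70.3 at E18. The exons of 61, 65 and 133 nt, each of the same length in 2 or 3 of the genes, were between 99.8 and 99.9 in all libraries, and the first exon of 54 nt was between 99.2 and 99.9.

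NOVA1 and NOVA2 bind clusters of a short CA-containing motif and were among the first splicing factors known to be confined to neurons. Nova1 had 3 events and Nova2 had 2, all from trios listed as constitutive. Exon 4 of Nova1, 72 nt of coding sequence shown above (chr12:47814485-47814556 in mm9, minus strand), is an exon whose inclusion NOVA1 is known to regulate. Its PSI was 59.3 in NesKO and 55.1 in WT, with 258 and 302 skipping reads. In junction reads this was a difference of 5.36 points (-0.50 to 11.2; Fisher's exact test, unadjusted p = 0.083 and adjusted p = 1). In the P1 libraries it was at 99.5 and 98.8, on 3 and 9 skipping reads. The 144 and 167 nt exons, which both NOVA genes have, were between 98.3 and 99.9 in all libraries.

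MBNL proteins promote the mature splicing pattern in muscle and brain and are sequestered in myotonic dystrophy. The 54 nt exon is known to bear on nuclear localisation of the protein. In Mbnl1 (chr3:60418605-60418658 in mm9, plus strand) it was at 69.1 in NesKO and 53.8 in WT at E18, and at 93.6 in EmxKO and 96.8 in labelled WT at P1. In Mbnl2 (chr14:120794934-120794987, plus strand) it was at 69.1 and 54.9 at E18 and at 74.4 and 74.0 at P1. Both paralogues were thus higher in NesKO by the deposited ratio, by 15.3 and 14.2 points. Junction PSI did not show this for Mbnl1, with 66.7% in both E18 libraries on 20 and 35 reads. For Mbnl2 it gave 9.14 points (-14.9 to 30.6) on 43 and 58 reads.

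The 36 nt exon of Mbnl2 (chr14:120802558-120802593, plus strand) was the only member event past 10 points at P1. Its PSI was 25.7 in NesKO against 41.2 in WT, and 56.4 in EmxKO against 34.0 in labelled WT, so that the knockout value was lower at E18 and higher at P1. These rest on 20, 31, 23 and 62 junction reads. The junction differences were -11.5 points (-34.6 to 15.9) and 19.8 points (-4.9 to 44.8), and the Wald test of the difference between the stages was not under 0.05 even unadjusted. In Mbnl1 the same exon (chr3:60425345-60425380) was at 82.9 and 93.9 at E18 and at 99.9 and 97.0 at P1 in the trio listed as constitutive. Its cassette trio was at 99.9 in all libraries, on 12 and 19 reads at E18.

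The 95 nt exon of Mbnl2 (chr14:120803860-120803954, plus strand) was at 65.4 in NesKO and 55.4 in WT, exactly at the limit of 10 points, and at 78.1 and 79.1 at P1. Its constitutive trio was at 99.9 in all libraries, on 16 to 96 reads. In Mbnl1 the 95 nt exon had 5, 11, 8 and 37 reads in NesKO, E18 WT, EmxKO and labelled WT, with a PSI of 99.9, 99.9, 99.9 and 98.5. The 201 nt exon of Mbnl1 (chr3:60407616-60407816, plus strand) was at 71.6 and 86.0 at E18, where one of its inclusion junctions had 0 reads in all libraries, and at 99.9 and 98.7 at P1. Its Mbnl2 counterpart of the same length was at 95.4 and 99.7 at E18 and at 97.8 and 99.8 at P1. The junction intervals of the MBNL exons past 10 points at E18 were 32.9 to 60.9 points wide, so a difference of 10 points was not detectable at this depth.

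ELAVL2, ELAVL3 and ELAVL4 are the neuronal Hu proteins, which stabilise AU-rich mRNAs and also act in splicing. The 2 Elavl2 events past 10 points at E18 lie at the start of the gene, where exons 2 of different transcripts are partly coding. The 91 nt exon (chr4:90978264-90978354, minus strand) was at 33.8 in NesKO and 44.0 in WT, and at 33.8 and 31.0 at P1. The 99 nt exon (chr4:91066129-91066227, minus strand) was at 27.5 and 11.3 on 32 and 24 reads. Junction PSI of these exons was much higher than the deposited ratio, with 75.0% and 83.8% for the 91 nt exon at E18, where 1 inclusion junction had 0 and 3 reads and the other 54 and 120. The differences kept their signs, at -8.78 (-26.2 to 6.28) and 11.3 points (-15.7 to 39.8).

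The 39 nt hinge exon of Elavl2 (chr4:90920832-90920870, minus strand) was at 97.2 in NesKO, 95.2 in E18 WT, 92.3 in EmxKO and 88.3 in labelled WT. In Elavl4 (chr4:109882345-109882383, minus strand) it was at 92.5, 92.5, 81.5 and 76.3 in the cassette trio and at 82.3, 86.9, 90.2 and 83.3 in the constitutive trio. In neither gene did a knockout differ from its WT past a threshold, with P1 junction differences of 5.13 points in Elavl2 (-0.06 to 9.49) and 6.17 in Elavl4 (-4.50 to 15.8). The exons of 104, 154 and 226 nt, which the 3 ELAVL genes have in common and which encode RNA recognition motifs, were between 99.5 and 99.9 in every library, except the 226 nt exon of Elavl2 at 97.2, 98.9, 93.0 and 93.1. Elavl3 had 5 events, with PSI from 98.8 to 99.9.

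The second question was how the splicing of the regulators differed between the libraries labelled WT, cortex at P1 and whole brain at E18. This comparison shares its libraries with both knockout comparisons, and 1 of them carried 31.6% skipping of Ptbp2 exon 4. Of 86 member events, 10 differed by at least 10 points, 7 higher and 3 lower at P1, where 4.04% of all events did. Among cassette events it was 6 of 18, with 20.9% in the background. Fisher's exact test on the reads called 11 member events in 8 distinct exons after adjustment, where 1.99% of all events were called. Of the 10 events past 10 points, 4 also passed that test, in Nova1, Rbfox2, Mbnl2 and Elavl4.

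**Figure D3:**
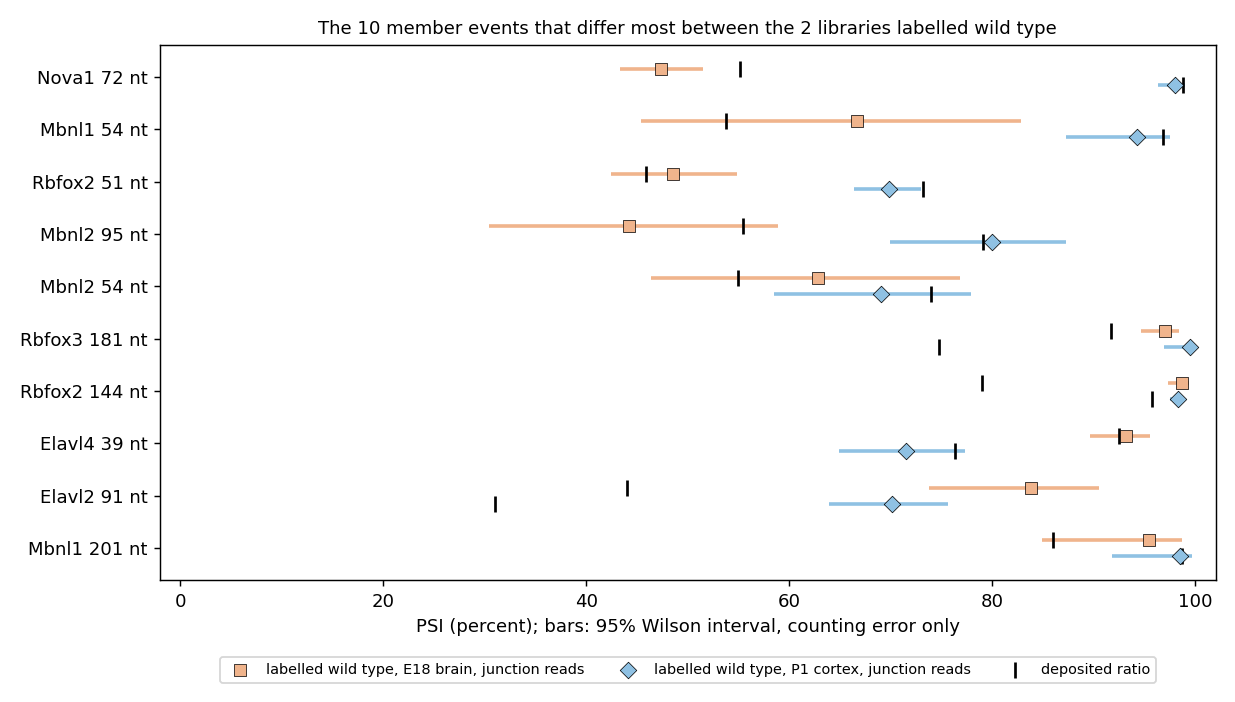
PSI (x axis, percent) of the 10 member events with the largest difference between the E18 and the P1 library labelled WT, with symbols and 95% Wilson intervals from junction reads and black ticks for the deposited ratio. The intervals of the Nova1 72 nt, Mbnl1 54 nt, Rbfox2 51 nt, Mbnl2 95 nt and Elavl4 39 nt exons do not overlap, and in the Rbfox3 181 nt and Rbfox2 144 nt exons the ticks lie apart while the symbols lie close.

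The largest difference was in exon 4 of Nova1, at 55.1 at E18 and 98.8 at P1. Its skipping reads fell from 302 to 9, on 845 and 904 junction reads in all, and junction PSI differed by 50.6 points (46.2 to 54.8; Fisher's exact test, adjusted p = 5.5e-80). Exon 2 of Rbfox2, a coding cassette exon of 51 nt (chr15:77061817-77061867 in mm9, minus strand), was at 45.9 at E18 and 73.2 at P1 (junction difference, 21.2 points, 14.1 to 28.2; Fisher's exact test, adjusted p = 6.7e-07). The knockouts stood at 41.8 and 73.3, near their WT in both cases. The 95 nt exon of Mbnl2 was at 55.4 and 79.1 (35.8 points, 18.0 to 51.4; Fisher's exact test, adjusted p = 0.0070).

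The hinge exon went the other way in Elavl2 and Elavl4. In Elavl3, where it was named by the wider rule described below, it was at 98.9 at P1 against 99.0 at E18 (junction difference, -0.47 points, -1.31 to 0.40). In Elavl4 it was lower at P1, at 76.3 against 92.5 (junction difference, -21.7 points, -28.7 to -14.9; Fisher's exact test, adjusted p = 3.2e-08). That was the cassette trio, and in the constitutive trio the same exon was at 83.3 against 86.9, a smaller deposited difference, with -16.1 points in junction reads (-22.1 to -10.8; Fisher's exact test, adjusted p = 5.4e-08). In Elavl2 it was at 88.3 against 95.2 (-9.92 points, -13.5 to -5.88; Fisher's exact test, adjusted p = 0.00049). Skipping reads of this exon in the E18 and P1 libraries labelled WT were 14 and 94 in Elavl2, on 561 and 1179 junction reads in all. In the cassette trio of Elavl4 they were 20 and 57, on 565 and 343. The same pair of paralogues thus shifted in the same direction.

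The 54 nt exon was higher at P1 in both MBNL genes, at 96.8 against 53.8 in Mbnl1 (junction difference, 27.6 points, 9.99 to 49.1; Fisher's exact test, adjusted p = 0.078) and at 74.0 against 54.9 in Mbnl2 (6.19 points, -11.3 to 24.9). The 201 nt exon of Mbnl1 was at 98.7 against 86.0, and the 91 nt exon of Elavl2 was at 31.0 against 44.0. For the 181 nt exon of Rbfox3, at 74.8 against 91.7, and the 144 nt exon of Rbfox2, at 95.7 against 79.0, junction PSI reversed the sign, with 2.41 (-0.41 to 4.85) and -0.36 points (-1.40 to 1.12). Both exons are also listed in another form with the same far end, of 147 nt in Rbfox2 and of 40 nt in Rbfox3. The 181 nt form of Rbfox3 is the 40 nt exon with a 141 nt extension from an alternative 3' splice site, described further below. This extension was itself lower at P1, at 24.2 against 39.8 (junction difference, -21.9 points, -27.6 to -15.9). In Rbfox2 the 3 nt extension that gives the 147 nt form was at 89.1 against 88.5. Smaller differences that passed the test on reads were in Rbfox2, where the 40 nt exon was at 91.0 against 86.3 (adjusted p = 0.0074) and the 93 nt exon 9 at 98.4 against 97.0 (adjusted p = 0.034), both by Fisher's exact test. The 93 nt exon of the RNA recognition motif in Rbfox2 was at 98.8 against 99.9, with 29 and 2 skipping reads (Fisher's exact test, adjusted p = 0.00095).

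The difference between the knockout effects at E18 and at P1 was tested for 81 member events. None had an adjusted p under 0.05 (Wald chi-square test), where 0.0799% of all events did, and 1 was under 0.05 unadjusted, the 5' UTR exon of Rbfox3.

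A wider naming rule, which accepts 2 matching introns or an exon shared with a named trio, added 15 events. Among them was the 53 nt cassette exon of Rbfox1, which is known to decide between nuclear and cytoplasmic forms of the protein. It was at 78.7 in NesKO and 70.3 in WT at E18 and at 57.2 in EmxKO and 61.9 in labelled WT at P1. The junction difference was 9.49 points at E18 (2.35 to 16.5; Fisher's exact test, adjusted p = 1) and -5.03 at P1 (-11.2 to 1.22). The difference between these 2 effects had an unadjusted p of 0.0026 in the Wald test and did not pass adjustment over all events. Rbfox3 uses an alternative 3' splice site that adds 141 nt and gives the long form of NeuN. It was at 33.0 and 39.8 at E18 and at 23.2 and 24.2 at P1, with 312 and 259 reads for the short form in the libraries labelled WT (E18 against P1 in labelled WT, Fisher's exact test, adjusted p = 4.0e-10). Past 10 points in a knockout comparison were 2 alternative splice sites of Mbnl1. The 3' site that adds 105 nt was at 86.0 against 72.8 at E18 and at 99.9 against 67.9 at P1. It had 34, 50, 23 and 68 reads, of which only 4, 9, 5 and 11 lay on its spliced junction. Skipping reads numbered 1, 0, 0 and 1. The junction differences, from spliced and skipping reads alone, were -20.0 (-62.4 to 14.1) and 8.33 points (-35.7 to 35.4). The 5' site that adds 826 nt was at 71.9 against 90.3 at E18 and at 98.1 against 98.2 at P1, with -2.51 (-12.8 to 4.69) and -3.61 points (-15.7 to 2.04) in junction reads. The hinge exon of Elavl3 also came from this rule and was between 98.9 and 99.2 in all libraries.

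Gene levels were described by the reads on all distinct junctions of a gene per 1000000 junction reads of the library (RPM), without a test, and the same gene was compared between libraries. In bulk tissue, fewer cells of a type and less RNA per cell cannot be told apart. Rbfox2 was at 352, 383, 499 and 423 in NesKO, E18 WT, EmxKO and labelled WT, and Elavl3 was at 257, 225, 209 and 203. Rbfox1 was at 109, 122, 69.3 and 128, and Rbfox3 was at 104, 114, 143 and 115. Elavl4 was at 56.8, 66.3, 18.1 and 29.6, and Elavl2 at 24.9, 42.3, 27.7 and 79.3. Nova2 was at 60.0, 44.3, 86.7 and 68.3 and Nova1 at 35.3, 33.7, 12.2 and 17.3. The MBNL genes had the fewest reads, with Mbnl1 at 4.47, 7.81, 3.06 and 10.9 and Mbnl2 at 4.78, 7.37, 3.59 and 8.72.

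No member differed 2-fold at E18, where 0.922% of 11280 genes did. At P1, 3 of 10 were more than 2-fold lower in EmxKO, where 8.09% of genes differed 2-fold in either direction. They were Mbnl1 at 0.282, Elavl2 at 0.349 and Mbnl2 at 0.411 times the level in labelled WT, and at E18 the same genes were at 0.572, 0.588 and 0.648. Between the libraries labelled WT, Elavl4 was at 0.446 in P1 cortex, where 23.0% of genes differed 2-fold.

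The level ratios moved with the GC content of the transcript over all genes. Across 11280 genes, Spearman's rho between GC content and the log2 ratio of knockout to labelled WT was 0.46 at E18 and 0.72 at P1, which is given as a description since all genes share 2 libraries. In 10 GC classes of 1128 genes, the class lowest in GC had a median log2 ratio of -0.31 at E18 and -0.98 at P1, and the highest of 0.12 and 0.28. Nova1, Mbnl1, Mbnl2, Elavl2 and Elavl4 all lie in the lowest class, with 38.5%, 39.7%, 40.4%, 38.5% and 38.9% GC. Relative to the median of their class, the P1 log2 ratios were -0.85 for Mbnl1, -0.54 for Elavl2 and -0.30 for Mbnl2, and none of the 10 genes was past 2-fold. Rbfox1, in the third class, had a log2 ratio of -0.89 at P1 against a median of -0.29. The part of GC content in the level differences was not tested. Between the libraries labelled WT, where rho was -0.37, Elavl4 and Nova1 had log2 ratios that stood at -1.76 and -1.56 relative to the median of their class.

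**Figure D4:**
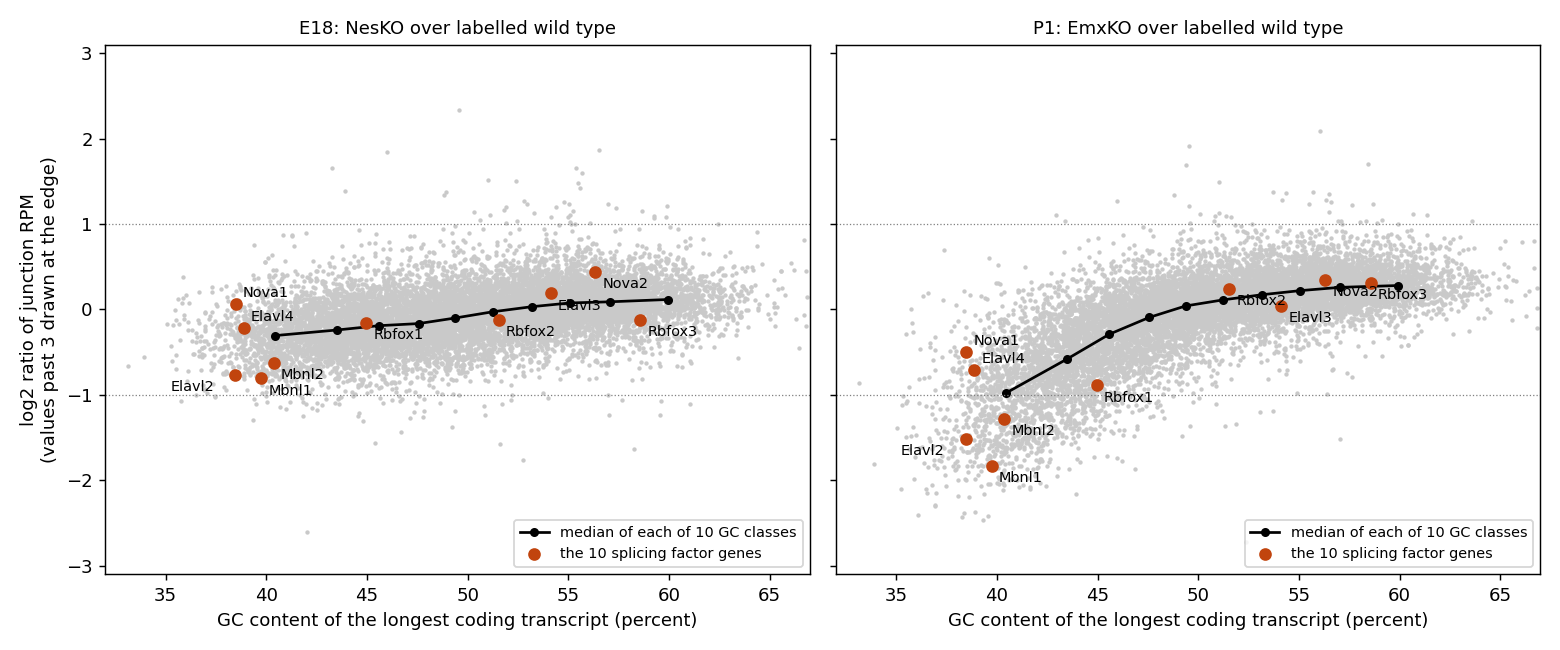
Log2 ratio of junction RPM between knockout and labelled WT (y axis) against GC content of the longest coding transcript (x axis, percent) for 11280 genes, with the medians of 10 GC classes as a line and the 10 splicing factor genes in red. At P1 the line climbs from -0.98 to 0.28, and Mbnl1, Elavl2 and Mbnl2 lie below the dotted line of a 2-fold reduction.

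For comparison, a list of 18 other RNA-binding regulators of splicing gave 198 events in 17 genes at each stage. At E18, 6 were past 10 points, 5 higher and 1 lower in NesKO, which is 3.03% against 2.23% of all events. At P1 it was 1, lower in EmxKO, which is 0.505% against 1.47% of all events. None passed Fisher's exact test on the reads after adjustment, and none of these 7 was under 0.05 unadjusted. The E18 events were in Celf1, with the 152 nt exon at 67.2 against 78.4 and the 114 nt exon at 94.3 against 81.4, in Celf4 with 83 nt at 81.2 against 60.6, in Celf5 with 142 nt at 96.4 against 80.6 and 49 nt at 93.6 against 77.6, and in Khdrbs1 with 60 nt of 3' UTR at 40.2 against 21.5. In junction PSI the E18 differences of these events were smaller, at -6.14 and 1.66 points for the Celf1 exons, -0.24 for Celf4, -0.08 and -0.33 for Celf5 and 0 for Khdrbs1. The P1 event was the 347 nt exon of Srrm3, at 44.8 in EmxKO against 85.3 in labelled WT, on 5 and 0 skipping reads and with a junction difference of -2.99 points.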

How the data were processed

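PolyA+ RNA of 4 libraries (NesKO and WT brain at E18, EmxKO and labelled-WT cortex at P1) was sequenced with paired reads of 100 nt. The authors mapped reads to mm9 exon trios with SpliceTrap and deposited inclusion ratios, fractions between 0 and 1 before and after correction, and counts of reads on the 3 junctions of each trio, not normalized. The submitters' notes also name CASAVA, TopHat and Cufflinks; versions are not given in the sources used here.

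The members and gene lists were chosen with earlier results of these data known. Of 228333 trios, 207686 matched 1 gene of GENCODE release M21 by lengths; 2485 matched several and were left out. The ratio after correction, in percent, was the PSI. A ratio of 0 beside inclusion reads and no skipping read was taken as no estimate (2 member trios). For alternative splice sites only the junction column on the side with an intron was used. In some sites on the minus strand the spliced reads lay in the other column. For the 12 nt site of Rbfox2 in E18 WT, the column used held 119 reads and the other 1334. The same junction held 1339 reads in the trio of the 145 nt exon. Tests on reads do not measure the splicing of such sites, which were kept among all events. No junction PSI is given for them here. Events needed 20 junction reads, and a difference of 10 points was called. Reads of 2 libraries were compared by two-sided Fisher's exact tests on rounded inclusion and skipping reads, adjusted by Benjamini-Hochberg over all events of a comparison. Knockout effects at the 2 stages were compared by a Wald test of the 2 log odds ratios, after adding 0.5 to every count. Intervals are Wilson's, and Newcombe's for differences, at 95%. The smallest share is 3 reads of the mean inclusion plus skipping reads. For the median event, 3 reads are given as a share of all its junction reads.

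Gene levels required 1 RPM (read per 1000000 junction reads) in all 4 libraries. Named were member events past 10 points in a knockout comparison (otherwise the cassette event with the largest change), paralogous exons of equal length and the 10 largest differences between the libraries labelled WT; member events past the adjusted p alone were added after their values were seen. Calculations used Python 3.11.15, numpy 2.4.6, pandas 2.3.3, scipy 1.17.1 and matplotlib 3.10.9, and were tested on simulated data. Alternatives were other read minimums, cutoffs, measures and naming rules. Coverage columns were not used.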

Additional observations from a re-analysis of the deposited data

How the results depend on the processing

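No paired analysis was possible because each group has 1 library, and for the same reason no library could be left out. At E18, 8 member events past 10 points became 1 at a minimum of 50 reads, 0 at a cutoff of 20 points, 5 with PSI from junction reads and 0 when an adjusted p under 0.05 (Fisher's exact test) was also required; the other alternatives gave 7 to 11. At P1, the 1 event became 0 at 50 reads, 5 at a cutoff of 5 points, 2 with the ratio before correction, 2 with the wider naming and 0 with the adjusted p. Between the libraries labelled WT, 10 events became 4 at 20 points, 4 with the adjusted p and 16 when every trio was counted; the other alternatives gave 8 to 15. The count of 0 events whose knockout effect differed between the stages stayed 0 in all 4 alternatives. Relative to the median of genes of like GC content, an alternative chosen after seeing the data, the members past 2-fold at P1 went from 3 to 0, and between the libraries labelled WT from 1 to 2. Of 29 differences that passed a threshold, 2 reversed with junction reads, the Rbfox2 144 nt exon at -0.36 and the Rbfox3 181 nt exon at 2.41 points. Another 3 moved, all between the libraries labelled WT. They were Nova1 72 nt (43.7 to 50.6 points), Mbnl1 201 nt (12.7 to 3.01) and the constitutive Elavl4 39 nt trio (-3.6 to -16.1). The other 24 were counted as the same, among them Mbnl1 54 nt at E18, which went from 15.3 to 0. The ratio before correction reversed none. The cause of these shifts was not tested, beyond the lower number of events at stricter settings. Depth limited the MBNL genes most, with 3.06 to 10.9 junction RPM.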
